A study of Homo sapiens with 6 samples.

Results

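The genes described here are the human matrix metalloproteinases (MMP), the ADAM and ADAMTS metalloproteinases and their tissue inhibitors (TIMP). They were taken from the deposited expression table by name: every protein-coding gene whose symbol is MMP, ADAM or ADAMTS followed by a number, or TIMP1 to TIMP4. The rule found 67 of 58051 genes: 24 MMP, 20 ADAM, 19 ADAMTS and 4 TIMP genes. One of the MMP names, MMP24OS, is a protein-coding gene on the opposite strand of MMP24 and is no protease, so 62 genes are proteases by name. The measured data were RNA-seq libraries of NTera-2 (NT2) cells, labelled as an embryonal carcinoma line. In 3 libraries the cells had received mimics of piR-36249, a PIWI-interacting RNA, and in 3 a scramble control. The genotype field calls the mimic libraries a knockdown and the control libraries control, and the design text also speaks of a knockdown, while titles and treatment field name mimics and scramble. Groups follow the titles, and each difference is mimic minus scramble. Whether the libraries stem from separate cultures is not in the labels, and the p-values reflect the spread between these 6 libraries alone, which could be technical.

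Metalloproteinases carry a zinc ion in the active site. MMPs are made as inactive precursors and cut collagens and other matrix proteins; secreted members and members held in the cell membrane differ in where they act. ADAMs are mostly membrane proteins that release the outer part of other membrane proteins, which is called shedding, and ADAMTS enzymes are secreted and cut proteoglycans, procollagens and other matrix proteins. TIMPs bind the active site of these enzymes, and TIMP3 is known to inhibit several ADAM and ADAMTS enzymes as well as MMPs.

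Promoter sequences are shown for the members that rose and fell most in each family and for the TIMPs that passed the test, where RefSeq's table on GRCh38.p14 held them. MMP10 is added because it was the member whose window held an AP-1 match; it was chosen after its values were seen. Each run is the strand of the gene, 5′ to 3′, ends before the annotated start and stops before the first GENCODE exon. Capitals mark GGGCGG (GC box) and, in MMP10, the AP-1 letters TGANTCA and the letters TATAAA, on either strand.
ADAM19, chr5:157575776-157576025, minus strand: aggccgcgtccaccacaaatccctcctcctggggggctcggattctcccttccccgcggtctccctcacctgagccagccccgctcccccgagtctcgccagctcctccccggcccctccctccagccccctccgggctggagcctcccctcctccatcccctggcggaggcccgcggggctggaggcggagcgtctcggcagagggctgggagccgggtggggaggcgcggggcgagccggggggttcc
ADAMTS7, chr15:78811465-78811714, minus strand: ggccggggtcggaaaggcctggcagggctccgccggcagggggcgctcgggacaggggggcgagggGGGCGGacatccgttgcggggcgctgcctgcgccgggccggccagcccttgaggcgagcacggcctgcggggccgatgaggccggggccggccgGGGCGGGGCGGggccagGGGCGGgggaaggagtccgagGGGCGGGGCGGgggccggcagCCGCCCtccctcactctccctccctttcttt
ADAMTS6, chr5:65481921-65482170, minus strand: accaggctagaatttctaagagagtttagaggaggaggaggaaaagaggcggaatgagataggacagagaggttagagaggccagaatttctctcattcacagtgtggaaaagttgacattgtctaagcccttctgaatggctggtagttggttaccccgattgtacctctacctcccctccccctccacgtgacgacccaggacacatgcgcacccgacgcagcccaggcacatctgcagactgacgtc
TIMP1, chrX:47582186-47582312, plus strand: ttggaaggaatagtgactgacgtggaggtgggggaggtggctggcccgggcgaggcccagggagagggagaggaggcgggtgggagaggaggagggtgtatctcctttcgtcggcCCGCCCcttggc
TIMP3, chr22:32801455-32801700, plus strand: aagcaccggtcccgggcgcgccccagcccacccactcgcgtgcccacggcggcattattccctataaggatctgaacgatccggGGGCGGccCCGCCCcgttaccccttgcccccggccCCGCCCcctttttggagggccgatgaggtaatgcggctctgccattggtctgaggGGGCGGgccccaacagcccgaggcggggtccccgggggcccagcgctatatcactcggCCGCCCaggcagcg
MMP10, chr11:102780629-102780878, minus strand: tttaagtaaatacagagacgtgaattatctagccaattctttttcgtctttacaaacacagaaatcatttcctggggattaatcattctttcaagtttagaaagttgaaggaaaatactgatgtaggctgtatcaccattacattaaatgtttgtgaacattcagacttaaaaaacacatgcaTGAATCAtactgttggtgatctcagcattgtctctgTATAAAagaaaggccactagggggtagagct

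Of the 25 members that could be tested, 16 matched a promoter in that table, and their 250 bases before the start were searched. The GC box was found in 13 of 16, and in 68.6% of the 8736 promoters of tested protein-coding genes. TATAAA was found in 2 of 16, ADAMTS10 and MMP10, and in 5.14% of all those promoters. TGANTCA was found in 1 of 16, MMP10, and in 3.70% of all. In MMP10 the AP-1 letters lay 67 to 61 bases and TATAAA 31 to 26 bases before the start. The ADAM19 and ADAMTS6 windows held none of these letters. The searched windows had a median GC content of 73% in the 16 members and 65.2% over all 8736 promoters. A match describes letters in a window and not a bound site.

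Levels are given in FPKM, read counts scaled to gene length and library depth by the authors. Depth was 48.0 to 62.7 M recovered reads per library, at which 10 reads on 1 kb of exon are worth 0.159 to 0.208 FPKM. Libraries of a group correlated at 0.994 to 0.996 and libraries of different groups at 0.985 to 0.988 over genes on the log2 scale. The labelled cell type was read against marker genes. Of 10 pluripotency or embryonal carcinoma markers, 2 (DNMT3B and PODXL) were above 1 FPKM in every library, while NANOG, SOX2, TDGF1, SALL4 and L1TD1 were listed at 0 in every library. POU5F1 reached at most 0.0706 FPKM in a library, LIN28A 0.00945 and DPPA4 0.268. Of 12 endothelial markers, 9 were above 1 FPKM in every library. The others were low: KDR reached at most 0.0400 FPKM in a library, CLDN5 0.149 and VWF 0.525. The summed endothelial markers ran from 707.7 to 769.8 FPKM in mimic and from 591.9 to 634.6 in scramble libraries, and none was at 0 throughout. The summed pluripotency markers ran from 312.8 to 354.5 and from 250.1 to 294.6 FPKM, nearly all of it PODXL (307.5 to 349.0 and 246.7 to 291.5 FPKM). None of 10 fibroblast and none of 10 macrophage and other blood markers passed 1 FPKM in every library. Their sums reached at most 1.70 and 0.709 FPKM in mimic and 0.915 and 0.499 FPKM in scramble libraries. TCF21, CD3E and MPO were at 0 in every library. Most markers of the labelled cell type were thus low or at 0, while most endothelial markers were expressed. Whether the cells are of the labelled type was not tested further. These sums move with the groups, and their part in the results below was not tested.

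Among the members, 25 had a mean of at least 0.5 FPKM over the 6 libraries and entered the test: 9 MMP, 8 ADAM, 5 ADAMTS and 3 TIMP genes. In the plot of levels by library, MMP1, MMP14 and TIMP1 have the highest levels, followed by ADAM15 and MMP2. MMP1 was among the most abundant transcripts of the cells, at rank 10 in each scramble library and at rank 13 or 14 in the mimic libraries. It made up 91.2% ± 0.145 (SD, n = 3) of the summed MMP FPKM with scramble and 86.9% ± 0.367 with mimic. Of the summed TIMP FPKM, TIMP1 made up 80.8% ± 0.777 and 87.4% ± 0.884.

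**Figure D1:**
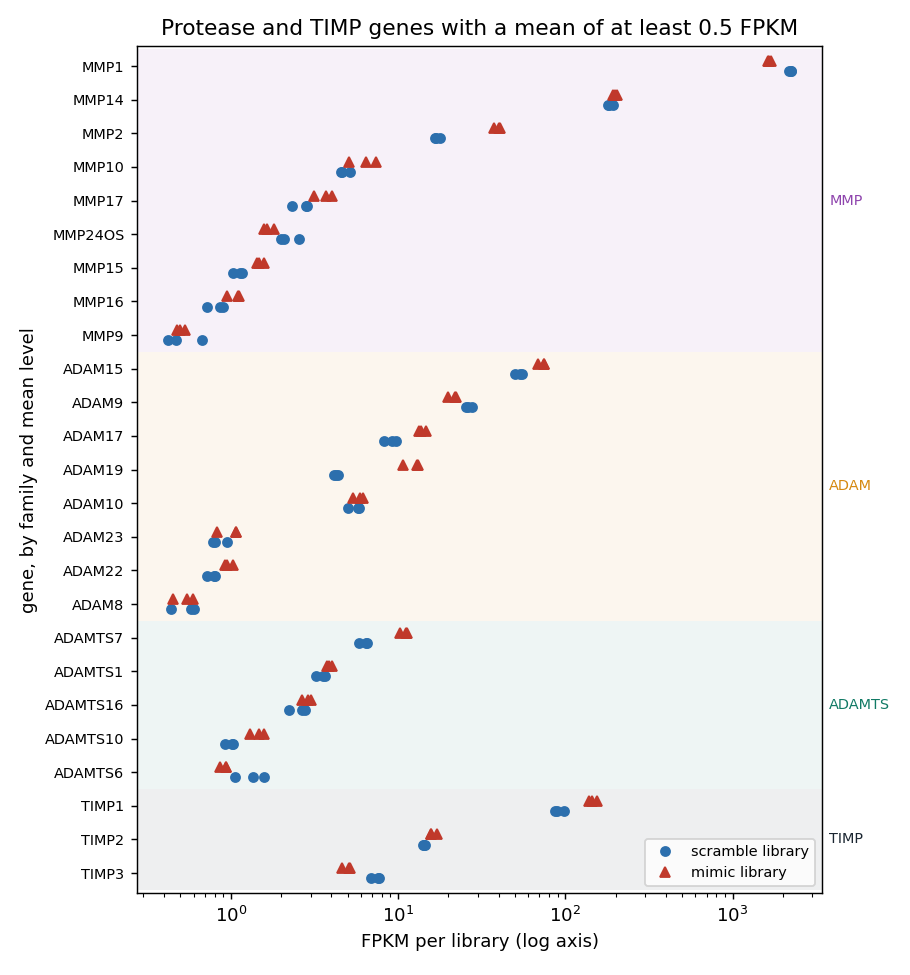
FPKM per library on a log axis for the 25 members with a mean of at least 0.5 FPKM, sorted by family and mean level; triangles are the 3 mimic and circles the 3 scramble libraries. The values of MMP2, ADAM19 and TIMP1 lie apart between the groups, with the mimic libraries higher, and those of MMP1 and TIMP3 lie apart with the mimic libraries lower.

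A gene is said to rise or fall when limma's adjusted p over all 12912 tested genes was under 0.05. This held for 4584 genes, 35.5% of those tested, with 18.7% higher and 16.8% lower with mimic. Of the 25 tested members, 10 rose and 5 fell, and 10 did not pass. Of the 21 tested proteases by name, 8 rose and 3 fell, and of the 3 tested TIMPs, 2 rose and 1 fell. The groups' values did not overlap in 19 of the 25, against 49.2% of all tested genes. The median log2 fold change was 0.15 over the tested members, 0.15 over the tested proteases and 0.16 over the TIMPs, and 0.0025 over all tested genes. The TIMP median is the value of TIMP2 alone, between 0.67 for TIMP1 and -0.49 for TIMP3. An exact permutation test of 3 against 3 libraries cannot go below a two-sided p of 0.1. Groups without overlap always give this value, so for the 19 members it repeats the lack of overlap. Fold changes are on log2(FPKM + 1), which understates changes of low genes, and sizes of rises and falls below are differences on this log2 scale. In bulk RNA, fewer cells of a type and less RNA per cell cannot be told apart.

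**Figure D2:**
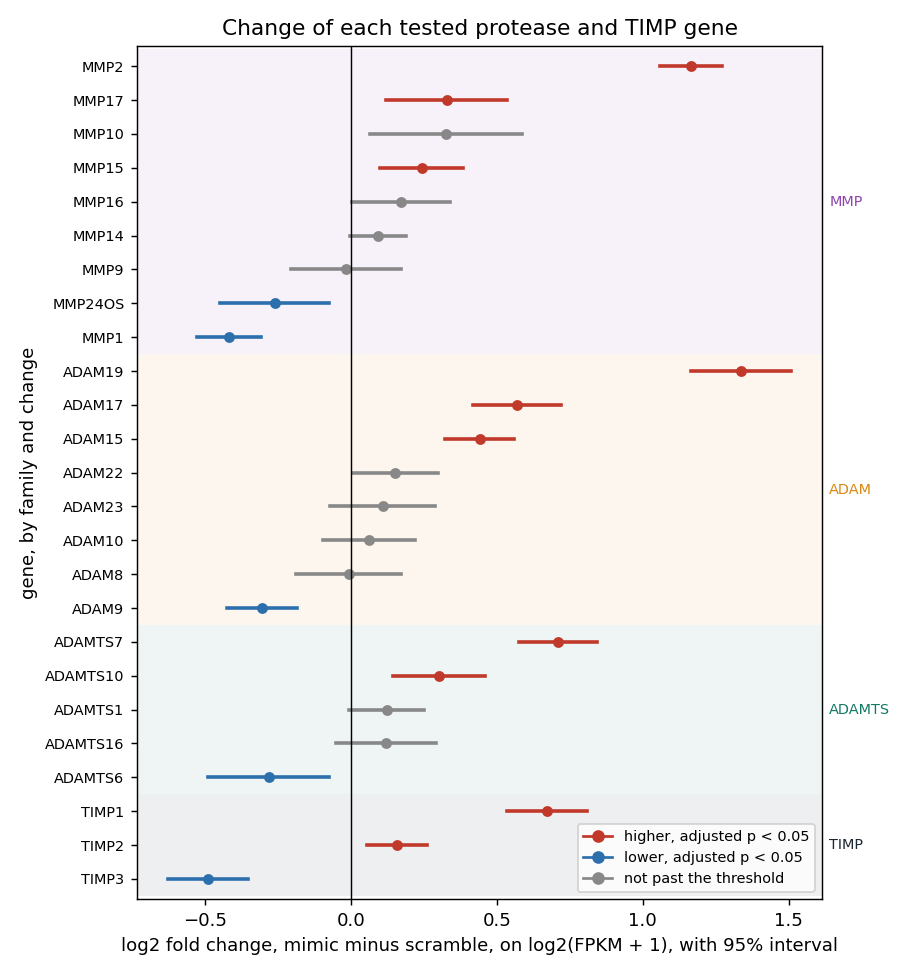
Log2 fold change of each tested member (point) with its 95% interval (line), sorted by family; red marks genes higher and blue genes lower at an adjusted p under 0.05, and grey the others. Each family holds members on both sides of 0, with ADAM19 at 1.34 and MMP2 at 1.17 farthest to the right and TIMP3 at -0.49 farthest to the left.

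MMP1 (chromosome 11, 102789920 to 102798160, minus strand, GRCh38; ENSG00000196611), the interstitial collagenase that cuts fibrillar collagens, fell. Its FPKM was 1705, 1628 and 1657 in mimic replicates 1 to 3 and 2191, 2244 and 2229 in scramble replicates 1 to 3. Every mimic library lay below every scramble library, and the gap was wider than the spread within either group. The means were 1663 ± 38.6 and 2221 ± 27.8 FPKM (SD, n = 3), a ratio of 0.749, with a log2 fold change of -0.42 (SE 0.047, limma adjusted p 0.000508). The other collagenases, MMP8 and MMP13, were listed at 0 in all libraries and at no more than 0.0112 FPKM, respectively.

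MMP2 (chromosome 16, 55389700 to 55506691, plus strand; ENSG00000087245), gelatinase A, which cuts denatured collagen and basement membrane collagen, moved the other way. It stood at 40.7, 37.7 and 40.4 FPKM with mimic and at 16.8, 16.7 and 17.8 FPKM with scramble. All mimic values were more than 19 FPKM above the highest scramble value. The means were 39.6 ± 1.68 and 17.1 ± 0.604 FPKM (SD, n = 3), a ratio of 2.32, and the log2 fold change was 1.17 (95% interval 1.06 to 1.27, limma adjusted p 1e-05). In the authors' deposited table, which lists 401 genes, all changed by at least 1 on the log2 scale in either direction, MMP2 has 1.20 (SE 0.059). MMP9, gelatinase B, was near the lower limit of the test, at 0.475, 0.531 and 0.50 FPKM with mimic and 0.423, 0.673 and 0.472 with scramble. Its groups overlapped, and its log2 fold change of -0.02 had a 95% interval from -0.21 to 0.17.

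MMP14 (chromosome 14, 22836557 to 22849027, plus strand; ENSG00000157227) is a membrane-type MMP known to activate the MMP2 precursor in a complex that includes TIMP2. It was the second most abundant member, at 192.6, 202.9 and 198.2 FPKM with mimic and 183.4, 192.3 and 181.2 with scramble. The groups did not overlap, by a margin under 1 FPKM, and the log2 fold change of 0.09 (95% interval -0.0031 to 0.19) did not pass (limma adjusted p 0.119). The ratio of MMP2 to MMP14 FPKM was 0.200 ± 0.013 with mimic and 0.0921 ± 0.0057 with scramble.

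The other membrane-type MMPs were far lower than MMP14. MMP17, held by a lipid anchor, stood at 4.01, 3.12 and 3.69 FPKM with mimic and 2.82, 2.33 and 2.85 with scramble, and rose by 0.33 (SE 0.090, limma adjusted p 0.025). MMP15 stood at 1.44, 1.48 and 1.58 FPKM against 1.03, 1.17 and 1.14, and rose by 0.24 (SE 0.061, adjusted p 0.0177). Both sets of libraries were apart, but each call rested on single libraries. MMP17 missed the threshold without mimic replicate 1 (adjusted p 0.0766), mimic replicate 3 (0.0770) or scramble replicate 2 (0.0713). MMP15 missed it without mimic replicate 3 (0.0638) or scramble replicate 1 (0.0674). MMP16 stood at 1.11, 1.13 and 0.951 FPKM against 0.867, 0.903 and 0.722, apart between groups but not past the threshold (log2 fold change 0.17, limma adjusted p 0.10). Without the filter on low values, MMP17 and MMP15 were not called either. Of the 6 membrane-type MMPs, 4 were tested and 2 rose, against 18.7% of all tested genes.

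MMP10, stromelysin-2, which cuts proteoglycans and other matrix proteins, is the neighbour of MMP1, with 19.4 kb between their lower coordinates. It stood at 7.36, 5.06 and 6.46 FPKM with mimic and 4.61, 4.53 and 5.18 with scramble. Mimic replicate 2 lay inside the scramble range and the other mimic libraries above it. The log2 fold change was 0.33 (95% interval 0.067 to 0.59, limma adjusted p 0.0549), and without mimic replicate 2 the adjusted p was 0.00564. These neighbours belong to a run of 9 MMP genes on the minus strand of chromosome 11, from 102520508 to 102955734, a span of 435.2 kb. The other 7 genes of the run (MMP7, MMP20, MMP27, MMP8, MMP3, MMP12 and MMP13) were below the filter. MMP20, MMP27 and MMP8 were listed at 0 in every library. The run was thus expressed mainly through MMP1 and, at a far lower level, MMP10, whose estimated changes had opposite signs.

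MMP24OS stood at 1.81, 1.57 and 1.66 FPKM with mimic and 1.99, 2.09 and 2.57 with scramble, and fell by 0.26 on the log2 scale (SE 0.080, limma adjusted p 0.0378). Of its exon sequence, 799 bases overlap exons of MMP24, which was at 0.129 FPKM at most, and no source used here gives the use of strand in counting. The call was lost in 7 of 14 alternatives, among them those without mimic replicate 1 (adjusted p 0.0528), 2 (0.101) or 3 (0.0968), without scramble replicate 2 (0.0583) or 3 (0.0852), and without the filter (0.127).

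ADAM19 (chromosome 5, 157395534 to 157575775, minus strand; ENSG00000135074), a membrane sheddase whose promoter is shown above, had the largest log2 fold change of the tested members. It stood at 10.8, 13.2 and 12.9 FPKM with mimic and 4.24, 4.14 and 4.37 with scramble. The mimic libraries spread more widely than the scramble libraries, and the lowest of them was still above all scramble values by more than 6 FPKM. The means were 12.3 ± 1.34 and 4.25 ± 0.112 FPKM (SD, n = 3), a ratio of 2.90, and the log2 fold change was 1.34 (95% interval 1.16 to 1.51, limma adjusted p 2.6e-05). ADAM19 and MMP2 were the only 2 members in the authors' deposited table, where ADAM19 has 1.53 (SE 0.080).

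The sheddases ADAM17 and ADAM10 differed in their values. ADAM17 (chromosome 2, 9488486 to 9556732, minus strand; ENSG00000151694), which releases tumour necrosis factor and EGF receptor ligands, stood at 13.4, 14.6 and 13.7 FPKM with mimic and 9.23, 9.77 and 8.20 with scramble. It rose by 0.57 (SE 0.065, limma adjusted p 0.000555), from 9.07 ± 0.801 to 13.9 ± 0.623 FPKM (SD, n = 3). Of its exon length, 12.3% overlaps IAH1 on the other strand, a gene at 5.06 FPKM on average. ADAM10, which sheds Notch receptors and cadherins, stood at 5.93, 6.21 and 5.39 FPKM with mimic and 5.85, 5.76 and 5.05 with scramble. Its groups overlapped and its log2 fold change of 0.06 had a 95% interval from -0.096 to 0.22 (limma adjusted p 0.511). The ratio of ADAM17 to ADAM10 FPKM was 2.26, 2.35 and 2.55 in mimic and 1.58, 1.70 and 1.62 in scramble libraries.

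ADAM15 (chromosome 1, 155050566 to 155062775, plus strand; ENSG00000143537) carries a disintegrin domain that binds integrins and was the most abundant ADAM. It stood at 74.5, 68.4 and 74.3 FPKM with mimic and 54.9, 50.4 and 53.9 with scramble. Groups were apart, and it rose by 0.44 (SE 0.051, limma adjusted p 0.000559). ADAM9 (chromosome 8, 38996869 to 39105144, plus strand; ENSG00000168615), another widely expressed membrane sheddase, was the ADAM that fell. It stood at 21.9, 22.1 and 19.96 FPKM with mimic and 26.3, 27.7 and 25.6 with scramble, and fell by 0.30 on the log2 scale (SE 0.052, limma adjusted p 0.00333).

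Among the remaining tested ADAMs, ADAM22 and ADAM23 lack catalytic activity and bind LGI proteins at synapses. Both are still counted among the proteases by name and in the protease sums. ADAM22 stood at 0.952, 1.03 and 0.926 FPKM with mimic and 0.807, 0.790 and 0.720 with scramble, apart between groups but not past the threshold (log2 fold change 0.15, limma adjusted p 0.0968). ADAM23 overlapped between groups, at 0.829 to 1.07 and 0.781 to 0.948 FPKM. ADAM8, known from leukocytes, lay between 0.437 and 0.602 FPKM in all libraries, with overlapping groups. Of the 8 tested ADAM genes, 3 rose and 1 fell, and of the 8 tested MMP proteases, 3 rose and 1 fell. Over all tested genes 18.7% rose and 16.8% fell.

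ADAMTS7 (chromosome 15, 78759203 to 78811431, minus strand; ENSG00000136378), which cuts cartilage oligomeric matrix protein, led its family. It stood at 11.4, 10.2 and 11.2 FPKM with mimic and 6.52, 5.86 and 6.47 with scramble. The lowest mimic library was above the highest scramble library by more than 3 FPKM. It rose by 0.71 (95% interval 0.58 to 0.84, limma adjusted p 0.000121), from 6.29 ± 0.365 to 10.9 ± 0.606 FPKM (SD, n = 3), a ratio of 1.74.

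ADAMTS10 and ADAMTS6 are related enzymes that act on fibrillin microfibrils. ADAMTS10 stood at 1.47, 1.30 and 1.59 FPKM with mimic and 0.920, 1.03 and 1.02 with scramble, and rose by 0.30 (SE 0.068, limma adjusted p 0.0116). ADAMTS6 stood at 0.932, 0.864 and 0.941 FPKM with mimic and 1.36, 1.58 and 1.06 with scramble, and fell by 0.28 on the log2 scale (SE 0.089, adjusted p 0.0425). Both were apart between groups, in opposite directions. The ADAMTS10 call was lost only without the filter on low values. The ADAMTS6 call was lost in 8 of 14 alternatives, among them those without mimic replicate 1 (adjusted p 0.0875), 2 (0.103) or 3 (0.0906), without scramble replicate 1 (0.111) or 2 (0.119), on the TPM scale (0.0595) and without the filter (0.155). ADAMTS1, a proteoglycanase that cuts versican, stood at 4.02, 3.86 and 3.77 FPKM against 3.68, 3.54 and 3.24 and did not pass (log2 fold change 0.12, limma adjusted p 0.126). ADAMTS16 overlapped between groups, at 2.66 to 3.02 and 2.23 to 2.77 FPKM.

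TIMP1 (chromosome X, 47582313 to 47586789, plus strand; ENSG00000102265), a secreted inhibitor of most MMPs, was the most abundant inhibitor. It stood at 154.5, 138.7 and 145.3 FPKM with mimic and 89.4, 86.7 and 98.0 with scramble. Every mimic library was more than 40 FPKM above every scramble library. It rose by 0.67 (95% interval 0.54 to 0.81, limma adjusted p 0.000173), from 91.4 ± 5.92 to 146.2 ± 7.91 FPKM (SD, n = 3), a ratio of 1.60.

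TIMP3 (chromosome 22, 32801701 to 32863043, plus strand; ENSG00000100234) binds to the extracellular matrix and inhibits ADAM17 and several ADAMTS enzymes. It stood at 4.64, 5.07 and 5.18 FPKM with mimic and 7.60, 6.87 and 7.64 with scramble. Here the mimic libraries were the low ones, with no overlap. It fell by 0.49 on the log2 scale (SE 0.059, limma adjusted p 0.000689), from 7.37 ± 0.436 to 4.96 ± 0.286 FPKM (SD, n = 3), a ratio of 0.673. TIMP2 (chromosome 17, 78852977 to 78925387, minus strand; ENSG00000035862), which also takes part in MMP2 activation, stood at 15.7, 15.7 and 17.0 FPKM with mimic and 14.2, 14.5 and 14.4 with scramble. Its rise was small, 0.16 (SE 0.044, limma adjusted p 0.0272). That call was lost without mimic replicate 3 (adjusted p 0.0866) or scramble replicate 1 (0.0888), 2 (0.0593) or 3 (0.0546), and without the filter. TIMP4 was listed at 0 in all libraries.

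Proteases and inhibitors were then set against each other within each library. These ratios and sums combine genes already described and carry no test, and they concern RNA, not enzyme activity. Summed over a family, without MMP24OS, TIMP FPKM was 167.2 ± 7.64 with mimic and 113.1 ± 6.21 with scramble (SD, n = 3). Summed ADAM FPKM was 128.5 ± 1.13 against 100.8 ± 1.82, and summed ADAMTS FPKM 20.6 ± 0.772 against 15.2 ± 0.600. Summed MMP FPKM was lower with mimic, 1914 ± 36.4 against 2435 ± 31.5, while the sum without MMP1 was higher, 251.1 ± 2.41 against 213.1 ± 5.16. Summed protease FPKM was 12.3 ± 0.342 times the summed TIMP FPKM with mimic and 22.6 ± 1.30 times with scramble. Without MMP1 these ratios were 2.40 ± 0.112 and 2.92 ± 0.201. Groups did not overlap in any of these 7 sums and ratios. The lower ratio with mimic was present with and without MMP1, and smaller in size without it. Without MMP1 no protease sum was lower with mimic. The MMP sum without MMP1 was higher by a factor of 1.18, the ADAM sum by 1.28 and the ADAMTS sum by 1.36. The TIMP sum was higher by a larger factor, 1.48. Both ratios rest largely on TIMP1, which made up 87.4% of the summed TIMP FPKM with mimic and 80.8% with scramble. TIMP2 averaged 16.1 and 14.3 FPKM, and TIMP3 4.96 and 7.37. A ratio without TIMP1 was not computed, so the lower ratio is not shown for the other inhibitors. With mimic, TIMP2 was at 1.12 times and TIMP3 at 0.673 times its scramble mean. Both factors are below those of the ADAM and ADAMTS sums and of the MMP sum without MMP1. Relative to TIMP2 and TIMP3, the proteases without MMP1 were thus higher with mimic, not lower.

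Single pairs gave ratios in both directions. MMP1 to TIMP1 was 11.03, 11.7 and 11.4 in mimic and 24.5, 25.9 and 22.7 in scramble libraries. Here the protease was lower and the inhibitor higher with mimic. MMP2 to TIMP2 was 2.60, 2.40 and 2.38 in mimic and 1.18, 1.15 and 1.24 in scramble libraries, higher with mimic in every library. MMP14 to TIMP2 overlapped, at 12.3 ± 0.634 and 12.9 ± 0.330. ADAM17 to TIMP3 was 2.89, 2.88 and 2.65 in mimic and 1.21, 1.42 and 1.07 in scramble libraries, with the sheddase higher and the inhibitor lower. ADAM19 to TIMP3 was 2.48 ± 0.145 against 0.577 ± 0.024. ADAM10 to TIMP1, which is known to inhibit ADAM10, was 0.0401 ± 0.0041 against 0.0612 ± 0.0084, lower with mimic. MMP2 to TIMP1 was 0.271 ± 0.0073 against 0.187 ± 0.0056, higher with mimic and without overlap, so ratios to TIMP1 also went both ways.

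**Figure D3:**
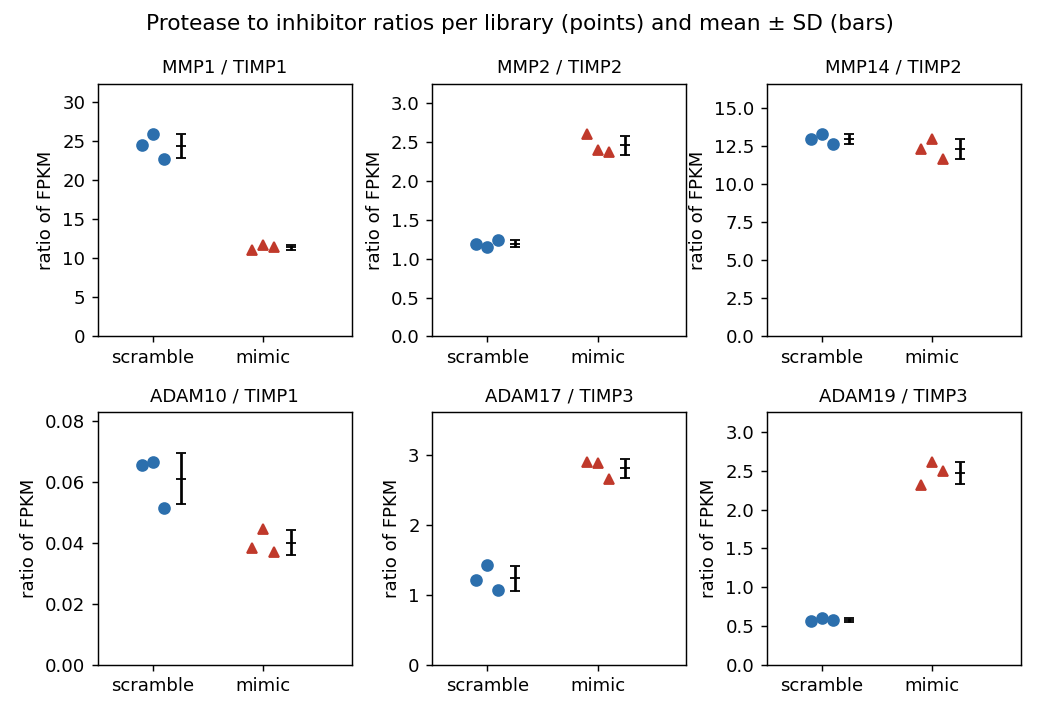
Ratio of FPKM of a protease to an inhibitor in each library (circles scramble, triangles mimic) with the mean and SD of the 3 libraries beside them; every axis starts at 0. MMP1/TIMP1 and ADAM10/TIMP1 are lower with mimic, MMP2/TIMP2, ADAM17/TIMP3 and ADAM19/TIMP3 are higher, and MMP14/TIMP2 overlaps.

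The other 42 members had a mean under 0.5 FPKM and were not tested. Listed at 0 in all libraries were 12: MMP8, MMP20, MMP26, MMP27, ADAM2, ADAM7, ADAM18, ADAM30, ADAMTS2, ADAMTS3, ADAMTS15 and TIMP4. Values above 0 but at most 0.1 FPKM were found for 21: MMP7, MMP12, MMP13, MMP19, MMP21, MMP23B, MMP28, ADAM11, ADAM12, ADAM20, ADAM28, ADAM29, ADAM32, ADAM33, ADAMTS5, ADAMTS8, ADAMTS12, ADAMTS13, ADAMTS14, ADAMTS17 and ADAMTS19. The remaining 9 passed 0.1 FPKM in at least 1 library. Highest was MMP11, stromelysin-3, at 0.247, 0.357 and 0.342 FPKM with mimic and 0.216, 0.168 and 0.206 with scramble. The MMP11 groups were apart, and when the filter was dropped its limma adjusted p was 0.147. ADAMTS9 reached 0.229, MMP25 0.177, ADAMTS20 0.172, ADAM21 0.149, ADAMTS18 0.144, MMP24 0.129, ADAMTS4 0.114 and MMP3 0.108 FPKM. Of the exon length of MMP25, 35.2% overlaps MMP25-AS1. The procollagen N-proteinases ADAMTS2, ADAMTS3 and ADAMTS14 and the aggrecanases ADAMTS4 and ADAMTS5 were thus at or near 0 in these cells.

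**Figure D4:**
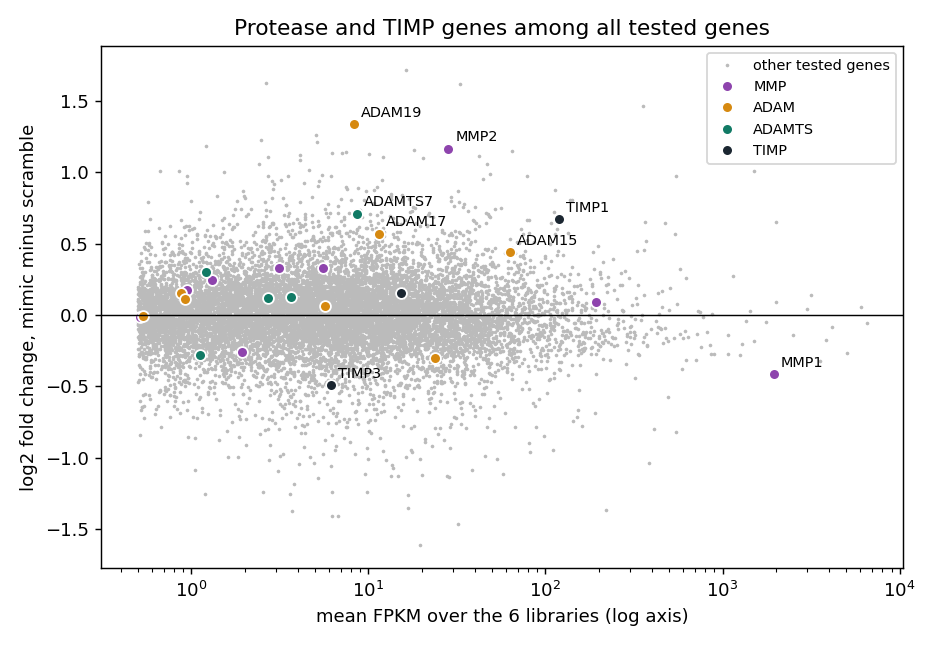
Mean FPKM over the 6 libraries (log axis) against log2 fold change, mimic minus scramble, for all 12912 tested genes; coloured points are the 25 tested members by family and grey points the other genes. ADAM19, MMP2, ADAMTS7 and TIMP1 lie on the upper side, and MMP1 lies at the right on the lower side. Other tested genes changed by more than ADAMTS7, TIMP1 and MMP1, such as IFI6 (0.97) and SKI (-0.89).

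Genes that act with these enzymes were read in 7 lists of 65 genes, of which 40 could be tested, and 17 rose and 4 fell; over all tested genes 18.7% rose and 16.8% fell. Among the proprotein convertases, which cut the precursors of membrane-type MMPs and ADAMs into their active form, 1 of 2 tested rose. This was FURIN, at 104.1, 102.7 and 107.6 FPKM with mimic and 55.9, 51.7 and 50.9 with scramble. The groups were far apart, with a log2 fold change of 0.98 (SE 0.046, limma adjusted p 1.6e-05). PCSK7 did not pass (log2 fold change 0.04).

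Of the other protease inhibitors and MMP regulators, 3 of 5 tested rose and none fell. RECK, a membrane-anchored protein that restrains several MMPs, stood at 1.44, 1.37 and 1.56 FPKM with mimic and 0.728, 0.670 and 0.696 with scramble. It rose by 0.53 (SE 0.062, limma adjusted p 0.000617). PCOLCE, which enhances procollagen C-terminal processing, rose by 0.34 (SE 0.079, limma adjusted p 0.0131), a call lost without the filter on low values (adjusted p 0.0564). Of the ADAM10 and ADAM17 partners, 4 of 8 tested rose and none fell. The largest rises were 0.35 for TSPAN15, a tetraspanin that travels with ADAM10 (limma adjusted p 0.00217), and 0.25 for FRMD8, which stabilises the complex of iRhoms with ADAM17 (adjusted p 0.00363). Of the ADAMTS-like proteins, 1 of 4 tested rose, THSD4, by 0.32 (adjusted p 0.00826).

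Membrane proteins known to be shed moved in both directions, with 7 of 15 tested higher and 2 lower, the latter near or below the 16.8% of all tested genes that fell. EPHB4, a receptor of ephrins, rose by 0.87, from 22.3 ± 0.795 to 41.7 ± 1.79 FPKM (SD, n = 3; limma adjusted p 2.1e-05). CDH5, the endothelial cadherin and also one of the endothelial markers above, rose by 0.49, from 88.0 ± 1.62 to 124.4 ± 2.70 FPKM (adjusted p 7.1e-05). CD44, the hyaluronan receptor, fell by 0.19 on the log2 scale (limma adjusted p 0.012). NOTCH2 fell by 0.40 on the log2 scale (limma adjusted p 0.040), with overlapping groups. Of the EGF receptor ligands, 2 were tested and HBEGF fell by 0.12 on the log2 scale (limma adjusted p 0.0391). Of the ADAMTS substrates, 4 were tested: FBN1 rose by 0.29 (limma adjusted p 0.0179) and FBN2 fell by 0.31 on the log2 scale (adjusted p 0.0491), both fibrillins. Without single libraries 3 of the 4 falls and 5 of the 17 rises of these lists lost their call. NOTCH2 and FBN2 did so when mimic replicate 1 or 3, or scramble replicate 1 or 2, was left out, with adjusted p up to 0.114 and 0.141. HBEGF did so when any single one of the 6 libraries was left out, with adjusted p up to 0.112, and it lost its call in 11 of 14 alternatives in all. NOTCH2 and FBN2 each lost theirs in 7 of 14, also without the filter on low values, on the TPM scale and without the variance trend (adjusted p up to 0.155 and 0.17). FBN1 did so without mimic replicate 2 (adjusted p 0.0504) and without the filter (0.0749). The other rises that lost their call were those of RHBDF1, TSPAN5, APP and SDC4.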

How the data were processed

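The submitters' processing notes list DESeq2 1.26.0, featureCounts 2.0.1, HISAT2 2.1.0 and Trimmomatic 0.39, with GRCh38. Annotation, counting options and use of strand: not given in the sources used here. As expression values, the authors deposited FPKM per gene and library. Their deposited table of 401 genes holds, per the file headers, a normalized mean (a signal), a log2 fold change with its error, a test statistic (a score) and p-values. For each of the 401 genes the deposited fold change and the FPKM difference (mimic minus scramble) share a sign, while the deposited statistic is opposite in 401 of 401; the fold change was used.

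Symbols and positions came from GENCODE release 29 (57447 of 58051 identifiers matched), and promoters from RefSeq. Columns of other samples numbered 0. Values were tested as log2(FPKM + 1) in limma 3.58.1 under R 4.3.3, with its variance trend, for genes averaging at least 0.5 FPKM, over all 6 libraries, no covariate, Benjamini-Hochberg adjustment over all tested genes, threshold 0.05. It was tested on simulated data. FPKM times exon length gave reads, whole within 0.02 for 95.3% to 95.6% of low values. Depth in these reads was 48.0 to 62.7 M per library.

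Alternatives covered the pseudocount, filter, scaling, variance model, recovered reads (voom), the replicate number as a block and each library left out. Named are all tested members, untested ones in groups, and for each list of related genes up to 2 largest rises and 2 largest falls. Other names were chosen after their values were seen. Members and lists were chosen with earlier results of these data known.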

Additional observations from a re-analysis of the deposited data

How the results depend on the processing

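Over the 15 called members and the 10 others, 344 alternative fold changes were computed. None changed sign among called values; 308 kept their side of the threshold, 28 lost a call and 8 gained it, and 16 members kept their side under every alternative run. Without the filter on low values, 6 members rose and 3 fell, and 3354 genes passed among more genes tested; the calls lost were those of ADAMTS10, ADAMTS6, MMP15, MMP17, MMP24OS and TIMP2. Leaving out each library in turn gave 7 to 11 members that rose, 3 to 4 that fell and 3374 to 4006 genes that passed, with fewer samples in each fit. Limma voom on recovered reads called 5037 genes, with 13 members higher and 5 lower; MMP10, MMP16 and ADAM22 were gained. MMP10 also passed with a filter of 1 FPKM, on the TPM scale and without mimic replicate 2, and over the alternatives of MMP10 the adjusted p ran from 0.00564 to 0.186. The log2 fold changes ran from 1.15 to 1.22 for MMP2, 1.29 to 1.52 for ADAM19, -0.50 to -0.40 for MMP1, 0.63 to 0.72 for TIMP1 and -0.58 to -0.45 for TIMP3. No scaling moved the median of all genes by more than 0.024. The titles number the replicates 1 to 3 in each group. Same-numbered libraries had deviations correlated at -0.062, 0.24 and 0.054, so the numbers were not taken to pair them, and not every library correlated best with its own number. With the replicate block, 11 members rose and 3 fell, and 4609 genes passed; ADAMTS6 and MMP24OS lost their call and MMP10 gained one, and the cause was not tested. Depth limits members with a few reads, such as MMP3, which had at most 12 reads in a library.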
